A study of Mus musculus with 60 samples.

Results

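The genes described are 8 protein-coding genes of lymphocyte egress and homing: the sphingosine-1-phosphate (S1P) receptor genes S1pr1, S1pr4 and S1pr5, the transcription factor gene Klf2, the P-selectin ligand gene Selplg and the integrin subunit genes Itgal, Itga4 and Itgb7. They were chosen by name, with earlier results of these data known, and all 8 were found among the 49315 genes counted. Their expression was compared by RNA sequencing of whole blood from 60 male CD2F1 mice, 5 to 6 weeks old at purchase, in 10 groups of 6, each mouse being bled once. BIO 300, an oral powder of synthetic genistein, or its vehicle of water, methylcellulose and polyvinylpyrrolidone was given by gavage for 6 days. Unirradiated mice received vehicle or BIO 300 at 50 (Low in the labels), 100 (Med) or 200 mg/kg (High). Separate mice were bled on Day 0 and on Day 1, with 24 h and 48 h respectively elapsed since dosing ended. The remaining 2 groups received vehicle or 200 mg/kg BIO 300 and then 9.2 Gy total-body irradiation (TBI) with cobalt-60 on Day 0 and were bled 24 h later, on Day 1. All mice had been gavaged and were anesthetized for the terminal bleed, one sex was studied, and no group was left undosed.

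Lymphocytes circulate between blood and lymphoid organs. They leave lymph nodes, spleen and thymus along a gradient of the lipid S1P, which is kept high in blood and lymph by red cells, platelets and endothelium and is sensed through G protein-coupled S1P receptors, and KLF2 keeps the S1P receptor 1 gene and other egress genes transcribed in resting T cells. They enter tissues by rolling on selectins, to which PSGL-1 (the product of Selplg) binds, and by arresting through integrins: LFA-1, built from the Itgal and Itgb2 products, binds ICAM-1, and the alpha 4 chain pairs with beta 1 to bind VCAM-1 or with beta 7 to bind MAdCAM-1 in the gut.

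Total counts per mouse ranged from 15099415 to 45589415. The scale factors of the trimmed mean of M-values (TMM), which set each library against the bulk of its genes, had group medians from 0.538 at 200 mg/kg on Day 1 to 1.90 at 50 mg/kg on Day 0, so the choice of scale moves the Day 1 results, and values on other scales are given below. RNA of liver genes was high in 10 of the 60 libraries, with albumin (Alb) above 100 CPM (a gene's counts scaled to its library's total), and these were 10 of the 30 odd-numbered and 0 of the 30 even-numbered animals. The median of Alb was 18.4 CPM in odd-numbered and 0 CPM in even-numbered animals, so leaving out the 10 does not remove all liver RNA. Expression is given as CPM with TMM factors over all 60 mice. Differences are log2 fold changes of edgeR's quasi-likelihood test with standard errors, fitted for the groups compared. A differentially expressed gene (DEG) had an adjusted p under 0.05 over all genes tested and an absolute log2 fold change over 1.

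With 6 mice per group, transcripts of S1pr1, S1pr4 and Itgb7 fell in the blood of mice given 100 or 200 mg/kg BIO 300 on Day 1 and in irradiated vehicle-treated mice, Itgal rose in the same 3 comparisons on the TMM scale, and Selplg rose after irradiation. S1pr1 had log2 fold changes of -1.73 at 100 mg/kg, -1.96 at 200 mg/kg and -2.07 after irradiation. T and B cell marker genes fell in the same comparisons. Relative to them S1pr1, S1pr4 and Itgb7 were not DEGs at either dose, where 49.5% and 47.7% of all genes were higher DEGs. That scale is the summed count of the T and B cell marker genes, in which B cell genes weighed most in vehicle-treated mice. After irradiation the median B cell sum went from 1005 to 104 CPM and the T cell sum from 387 to 87.5 CPM. S1pr4 and Itgb7 were then higher DEGs on that scale (1.74 and 1.41), as were 88.7% of all genes. Both lay below the median log2 fold change of all genes there (3.12). On the TMM scale none of the 8 genes was a DEG on Day 0 at any dose, at 50 mg/kg on Day 1, or between vehicle-treated mice of the 2 days, and Itga4 and S1pr5 were DEGs in no comparison of 2 groups. Because blood is a mixture, fewer cells of a type and less RNA per cell cannot be told apart in these data.

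**Figure D1:**
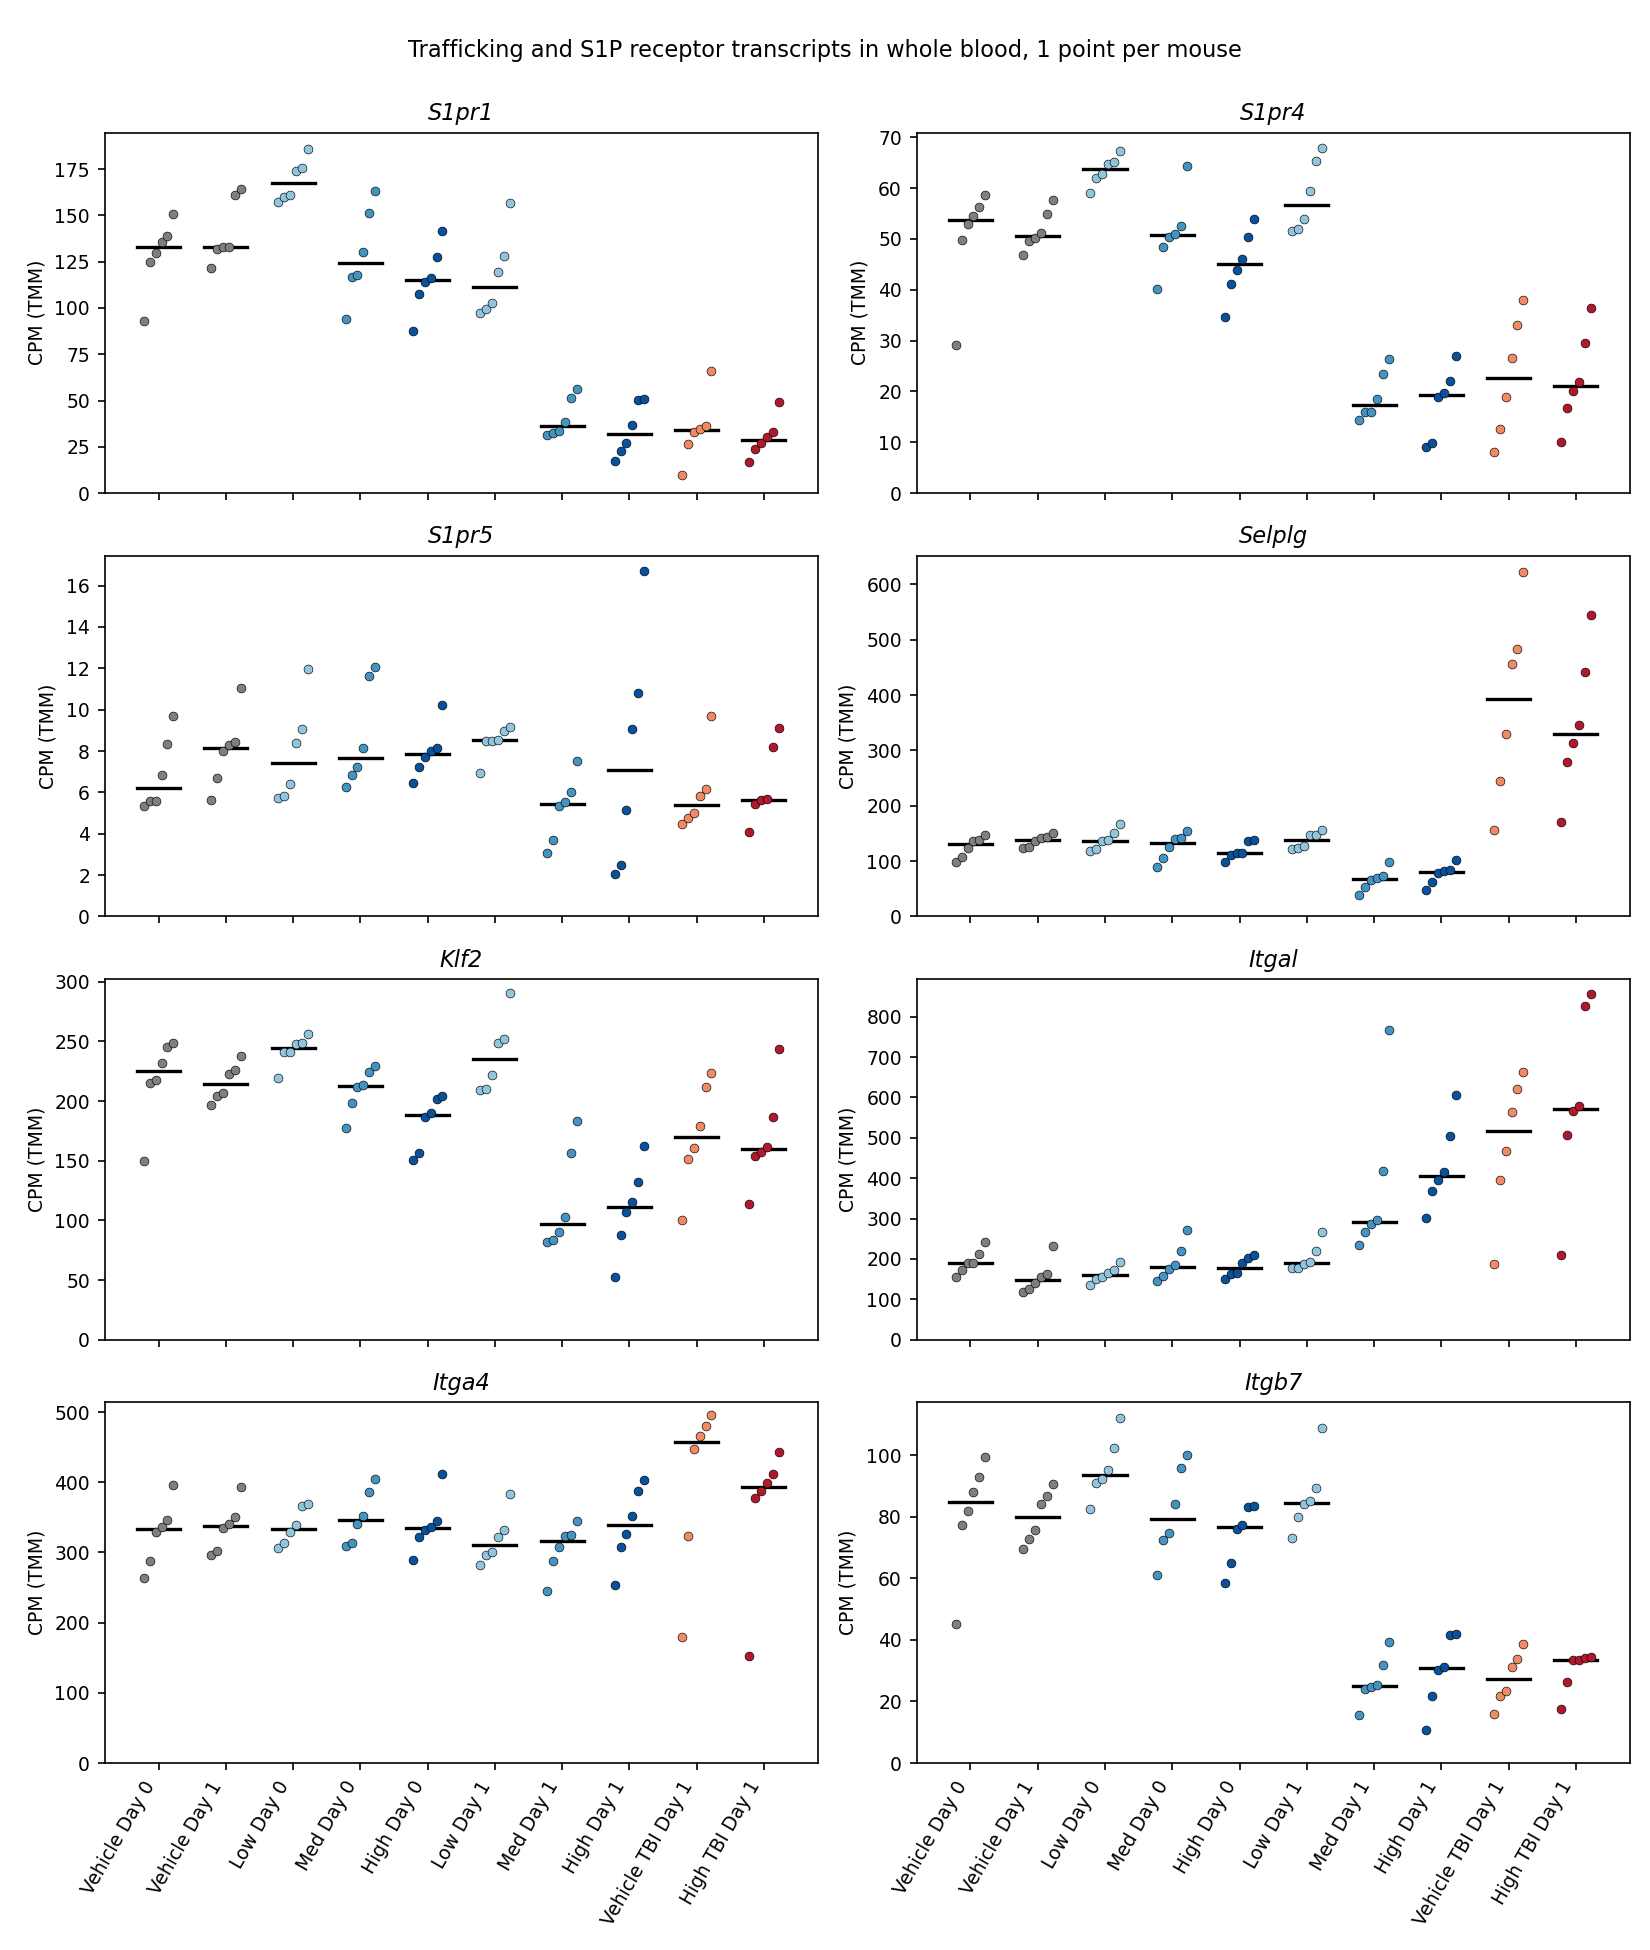
Expression (CPM with TMM factors over 60 mice, linear axes from 0) of the 8 genes in each mouse by group, with the median of each group as a line. The highest S1pr1 value among the 4 groups on the right (66.2 CPM) lay below the lowest among the 6 groups on the left (87.6 CPM), and Selplg was highest in the 2 irradiated groups.

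Per kilobase of annotated exon, the levels in vehicle-treated mice on Day 1 ran from Klf2, with a median of 116 CPM per kilobase, through S1pr1 (43.6), Selplg (32.4), Itgb7 (28.8), Itga4 (24.2), Itgal (22.5) and S1pr4 (21.2) to S1pr5 (3.26). In irradiated vehicle-treated mice the medians on the same per-length scale were 92.0 for Klf2, 92.0 for Selplg, 78.6 for Itgal and 11.1 for S1pr1. Selplg and Itgal were thus near the per-length level of Klf2 after irradiation, and S1pr1 was below Itga4 (32.7). The lowest raw count of any of the genes was 19, for S1pr5, and the lowest for S1pr1 was 145.

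S1pr1 (chr3:115710433-115715072, minus strand, GRCm38 and GENCODE coordinates as for the other genes) encodes the receptor that lymphocytes need to leave lymphoid tissue. Its lowest, median and highest values were 121, 133 and 164 CPM in vehicle-treated mice on Day 1. At 100 mg/kg they were 31.4, 36.0 and 56.1 CPM, and at 200 mg/kg 17.2, 32.1 and 50.9 CPM, with no overlap between either dose and vehicle. The log2 fold change was -1.73 ± 0.17, adjusted p = 8.90e-07 at 100 mg/kg and -1.96 ± 0.24, adjusted p = 6.63e-06 at 200 mg/kg. On Day 0 the same doses gave 94.2, 124 and 163 CPM and 87.6, 115 and 141 CPM against 93.0, 133 and 151 CPM with vehicle, and these ranges overlapped. After TBI, vehicle-treated mice had 9.68, 33.9 and 66.2 CPM, all below both vehicle groups, and the fold change was -2.07 ± 0.33, adjusted p = 2.91e-04 against Day 1 and -1.86 ± 0.31, adjusted p = 6.41e-04 against Day 0.

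Endothelial cells also express S1pr1, and RNA of endothelial genes was present in the libraries at low levels. The summed level of 8 endothelial marker genes was 2.68 to 9.99 CPM in vehicle-treated mice on Day 1, 10.2 to 20.2 CPM at 200 mg/kg on Day 1 and 18.6 to 122 CPM after TBI with vehicle. Between these groups it was thus higher where S1pr1 was lower. Within the irradiated groups and at 200 mg/kg on Day 1, the mouse with the highest endothelial sum also had the most S1pr1. Animal 51 of the irradiated vehicle group had 122 CPM of endothelial genes and 66.2 CPM of S1pr1. Animal 57 of the irradiated BIO 300 group had 116 and 49.3 CPM, and animal 43 at 200 mg/kg 20.2 and 50.9 CPM. In both unirradiated vehicle groups and at 100 mg/kg on Day 1, that mouse had the least S1pr1. The values were 58.8 and 93.0 CPM (animal 17), 9.99 and 121 CPM (animal 29) and 42.7 and 31.4 CPM (animal 37). In the other groups it had neither the most nor the least. All animals named were among the 10 with Alb above 100 CPM. Leaving those 10 out, the fold change after TBI against Day 1 was -2.42 ± 0.30, adjusted p = 7.88e-06, and at 200 mg/kg on Day 1 it was -2.13 ± 0.24, adjusted p = 1.95e-06.

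S1pr4 (chr10:81497747-81500132, minus strand) encodes a receptor found mainly on lymphoid and myeloid cells. Vehicle-treated mice on Day 1 had 46.7, 50.7 and 57.6 CPM, those given 100 mg/kg 14.3, 17.3 and 26.3 CPM and those given 200 mg/kg 9.00, 19.3 and 27.0 CPM, again without overlap. The fold changes were -1.37 ± 0.16, adjusted p = 3.84e-06 and -1.46 ± 0.23, adjusted p = 7.86e-05. After TBI the vehicle group spread from 8.08 to 37.9 CPM. The fold change was -1.20 ± 0.32, adjusted p = 0.00913 against Day 1 and -1.02 ± 0.36, adjusted p = 0.0428 against Day 0, and both lost the DEG call without the Alb-high mice, at -0.91 ± 0.24, adjusted p = 0.00455 and -0.94 ± 0.23, adjusted p = 0.00256. The call against Day 1 was also lost without animal 51 alone (-0.995, adjusted p = 0.00346). The call against Day 0 was lost without any of 8 animals, 49, 51, 54, 13, 14, 15, 16 or 18, of which animal 51 gave the smallest change (-0.88, adjusted p = 0.0199) and animal 54 the largest (-1.07, adjusted p = 0.0579), with adjusted p up to 0.0823.

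S1pr5 (chr9:21242912-21248443, minus strand), which NK cells and patrolling monocytes use to leave the bone marrow, was the least abundant of the 8. Its values were 5.63, 8.15 and 11.1 CPM with vehicle on Day 1, 3.08, 5.43 and 7.52 CPM at 100 mg/kg, 2.06, 7.09 and 16.7 CPM at 200 mg/kg and 4.45, 5.40 and 9.72 CPM after TBI, and the groups overlapped. At 100 mg/kg the fold change was -0.56 ± 0.22, adjusted p = 0.0398, under the fold threshold, and at 200 mg/kg it was 0.04 ± 0.41, adjusted p = 0.945. The 3 odd-numbered and 3 even-numbered mice at 200 mg/kg differed in direction for S1pr5, at -1.35 and 0.84 against vehicle-treated mice of the same parity. The summed level of 8 NK cell genes was 41.5 to 408 CPM at 200 mg/kg on Day 1, against 98.2 to 243 CPM with vehicle. The gene Gm48303 overlaps S1pr5 on the opposite strand, and the strand setting used for counting was not given in the sources used here, so reads of the 2 genes cannot be told apart.

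The 2 other S1P receptor genes counted were lower still. S1pr2 had medians of 2.39 and 4.68 CPM in vehicle-treated mice on Day 1 and after TBI. S1pr3 had 1.06 and 0.191 CPM and fell (-1.63 ± 0.53, adjusted p = 0.0235).

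Klf2 (chr8:72319033-72321656, plus strand) was lower at the 2 higher doses on Day 1, but by less than the fold threshold. Vehicle-treated mice had 197, 214 and 237 CPM on Day 1, mice given 100 mg/kg 82.2, 96.6 and 183 CPM and mice given 200 mg/kg 52.8, 111 and 162 CPM, with no overlap between either dose and vehicle. The fold changes were -0.82 ± 0.21, adjusted p = 0.0033 and -0.90 ± 0.21, adjusted p = 0.00172. Klf2 passed the fold threshold at 100 mg/kg without animal 38 (-1.01, adjusted p = 2.13e-04) and at 200 mg/kg without animal 46 (-1.05, adjusted p = 3.56e-04). Irradiated vehicle-treated mice had 100.5, 169.9 and 224 CPM and overlapped the unirradiated ones, with -0.36 ± 0.19, adjusted p = 0.129. No scaling can move the log2 ratio of S1pr1 to Klf2 counts within a library. Its median was -0.60 (range -0.77 to -0.44) with vehicle on Day 1. At 200 mg/kg it was -1.77 (range -1.98 to -1.18) and after TBI with vehicle -2.49 (range -3.38 to -1.28). At the lowest dose on Day 1 it was -1.04 (range -1.19 to -0.89) and at 100 mg/kg -1.47 (range -1.84 to -1.11). Every mouse of these dosed or irradiated groups lay below the vehicle range, so the lower ratio was not confined to the higher doses and TBI. This ratio, like those below, was chosen after its values were seen and was not tested.

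Promoters of 2 genes that fell and of Klf2 are shown because KLF factors bind CACCC boxes, and because S1pr4 and Itgb7 had the most similar levels among the 8 genes over the 60 mice (Pearson r = 0.96 of log2(CPM + 1), a description over mice that share groups and scaling). The sequences are from RefSeq on GRCm38.p6, 5′ to 3′ on the gene's strand, and end at the annotated start of the gene. Capitals mark CACCC or its reverse complement GGGTG, the one motif searched, on both strands. RefSeq windows were found for 5 of the 8 genes, S1pr4, S1pr5, Klf2, Itga4 and Itgb7.
S1pr4, chr10:81500138-81500387, minus strand: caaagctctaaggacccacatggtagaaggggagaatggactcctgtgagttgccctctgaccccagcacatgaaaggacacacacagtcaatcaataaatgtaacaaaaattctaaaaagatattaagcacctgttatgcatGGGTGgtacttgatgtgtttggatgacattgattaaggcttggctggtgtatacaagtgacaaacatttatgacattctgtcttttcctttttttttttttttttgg
Itgb7, chr15:102231945-102232185, minus strand: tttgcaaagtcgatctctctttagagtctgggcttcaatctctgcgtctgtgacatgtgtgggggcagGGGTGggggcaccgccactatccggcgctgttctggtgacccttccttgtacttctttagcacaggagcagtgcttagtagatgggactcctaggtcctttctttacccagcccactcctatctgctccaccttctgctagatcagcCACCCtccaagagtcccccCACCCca
Klf2, chr8:72318812-72319032, plus strand: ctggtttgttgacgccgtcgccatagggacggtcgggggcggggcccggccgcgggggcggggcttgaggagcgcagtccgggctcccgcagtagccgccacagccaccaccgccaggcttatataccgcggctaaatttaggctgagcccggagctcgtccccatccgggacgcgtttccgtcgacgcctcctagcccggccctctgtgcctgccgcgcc
The S1pr4 window held 0 CACCC and 1 GGGTG, the Itgb7 window 2 and 1, and the Klf2 window 0 of each. Among 32851 RefSeq promoters, 52.0% had at least 1 match on either strand in 250 bases, 50.8% in the 241 bases of the Itgb7 length and 48.0% in the 221 bases of the Klf2 length. The window of Itga4, which was a DEG in no comparison of 2 groups, held 3 CACCC and 1 GGGTG. The S1pr4 window was 38.8% G or C and the Klf2 window 71.5%.

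Selplg (chr5:113818536-113832644, minus strand) was lower at the 2 higher doses on Day 1 and rose after irradiation. Vehicle-treated mice had 123, 139 and 151 CPM on Day 1. At 100 mg/kg the values were 39.5, 67.4 and 97.4 CPM and at 200 mg/kg 47.4, 79.4 and 102 CPM, all below vehicle, with fold changes under the threshold at -0.98 ± 0.18, adjusted p = 2.68e-04 and -0.77 ± 0.16, adjusted p = 6.50e-04. At 100 mg/kg Selplg passed the fold threshold without animal 38 (-1.14, adjusted p = 2.31e-05) or animal 40 (-1.01, adjusted p = 5.36e-04). After TBI they were 156, 393 and 622 CPM with vehicle and 171, 329 and 544 CPM with 200 mg/kg BIO 300, all above their unirradiated counterparts. Selplg rose with vehicle by 1.46 ± 0.29, adjusted p = 0.00135 and with BIO 300 by 2.15 ± 0.27, adjusted p = 1.18e-04, and in the latter comparison it was the 1 DEG among the 8 genes. Scaled to 6 pan-leukocyte genes, the increase with vehicle was 0.77 ± 0.17, adjusted p = 0.00295, under the fold threshold. Of those 6 genes, 2 were themselves higher DEGs after TBI on the TMM scale, beside 19.6% of all genes. Neutrophils also carry PSGL-1, and the summed level of 8 neutrophil genes was 425 to 690.4 CPM with vehicle on Day 1, 422 to 956 CPM at 200 mg/kg on Day 1, 1173 to 6602 CPM after TBI with vehicle and 1513 to 6073 CPM after TBI with BIO 300. Of these 8 genes, 7 rose after TBI with vehicle, beside 19.6% of all genes, and 6 with BIO 300, beside 14.9%. Their part in the Selplg result was not tested.

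Itgal (chr7:127296260-127335138, plus strand) was the gene that rose at the 2 higher doses on Day 1 on the TMM scale. Vehicle-treated mice had 119, 147 and 233 CPM, those given 100 mg/kg 234, 292 and 767 CPM and those given 200 mg/kg 301, 406 and 606 CPM. The lowest mouse at 100 mg/kg (234 CPM) was level with the highest vehicle mouse (233 CPM), and at 200 mg/kg the lowest mouse had 301 CPM. The fold changes were 1.33 ± 0.28, adjusted p = 8.09e-04 and 1.54 ± 0.20, adjusted p = 1.01e-05, but scaled to total counts they were -0.05 ± 0.25 and 0.04 ± 0.17 and neither was called. After TBI the vehicle group had 187, 516 and 663 CPM and overlapped the unirradiated group, with 1.61 ± 0.29, adjusted p = 7.04e-04 on the TMM scale and 1.14 ± 0.20, adjusted p = 6.40e-04 by total counts. Scaled to the 6 pan-leukocyte genes it was 0.96 ± 0.20, adjusted p = 0.00227, under the fold threshold.

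The ratio of Itgal to S1pr1 within a library does not depend on scale. Its log2 median was 0.07 (range -0.38 to 0.81) with vehicle on Day 1, 2.96 (range 2.40 to 4.52) at 100 mg/kg, 3.99 (range 2.59 to 4.52) at 200 mg/kg, 4.09 (range 1.50 to 6.10) after TBI with vehicle and 4.32 (range 2.10 to 5.65) after TBI with BIO 300. At 50 mg/kg on Day 1 it was 0.78 (range 0.17 to 1.46), overlapping vehicle. Itgb2, the beta chain that pairs with Itgal and was singled out here after its values were seen, also rose on the TMM scale, at 1.59 ± 0.15, adjusted p = 6.27e-07 at 200 mg/kg and 1.69 ± 0.15, adjusted p = 7.63e-06 after TBI, and its total-count fold change at 200 mg/kg was 0.07.

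Of the 2 chains of the gut-homing integrin, Itgb7 fell and Itga4 was not a DEG. Itga4 (chr2:79255426-79333123, plus strand) had 297, 338 and 394 CPM with vehicle on Day 1, 254, 339 and 403 CPM at 200 mg/kg and 179, 457 and 497 CPM after TBI, overlapping throughout, with 0.08 ± 0.13, adjusted p = 0.609 and 0.22 ± 0.23, adjusted p = 0.449. Itgb7 (chr15:102215995-102231944, minus strand) had 69.6, 79.9 and 90.8, 10.8, 30.8 and 41.9 and 16.1, 27.2 and 38.5 CPM in the same groups and 15.6, 24.9 and 39.2 CPM at 100 mg/kg, with every treated mouse below every vehicle mouse. Itgb7 fell by 1.51 at 100 mg/kg, 1.35 at 200 mg/kg and 1.57 after TBI on the log2 scale, with adjusted p of 8.52e-06, 2.81e-04 and 8.29e-05. The within-library log2 ratio of Itgb7 to Itga4 had a median of -2.05 (range -2.29 to -1.84) with vehicle on Day 1 against -3.56 (range -5.16 to -2.62) at 200 mg/kg. Itgb1, the other partner of the alpha 4 chain and also singled out after its values were seen, rose at 200 mg/kg (2.64 ± 0.19, adjusted p = 3.54e-08), with a total-count fold change of 1.11. Itga4 overlaps the gene Cerkl on the opposite strand, with the same limit as for S1pr5.

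Counted over the 8 genes, 1 was a DEG with higher and 3 with lower expression at 100 mg/kg on Day 1, where 18.2% of all genes tested were higher DEGs and 30.6% lower ones. The same counts, 1 and 3, were found at 200 mg/kg, against 17.3% and 30.5% of all genes. After TBI with vehicle 2 were higher and 3 lower in each comparison, against 19.6% and 16.4% of all genes relative to Day 1 and 15.1% and 11.8% relative to Day 0. Over the 8 genes, log2 fold changes had a median of -0.90 at 100 mg/kg, -0.83 at 200 mg/kg and -0.41 after TBI against Day 1, beside medians over all genes of -0.38, -0.48 and 0.09. The 100 and 200 mg/kg groups and the irradiated group share the 6 vehicle-treated mice of Day 1, so these comparisons are not independent of each other. Because the liver RNA was in odd-numbered animals, the comparisons were repeated within each parity, with 3 against 3 mice. At 200 mg/kg on Day 1 S1pr1 was -2.03 ± 0.39 in odd and -1.88 ± 0.22 in even animals, with 7 and 4 of the 8 genes called. After TBI with vehicle S1pr1 was -1.63 ± 0.36 and -2.50 ± 0.40 against Day 1, with 2 and 5 called, and -1.55 ± 0.39, adjusted p = 0.0928 and -2.31 ± 0.39, adjusted p = 6.57e-04 against Day 0, with 0 and 5 called. Shares of all genes called within a parity are not given here, so these counts do not set the 8 genes apart from other genes.

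**Figure D2:**
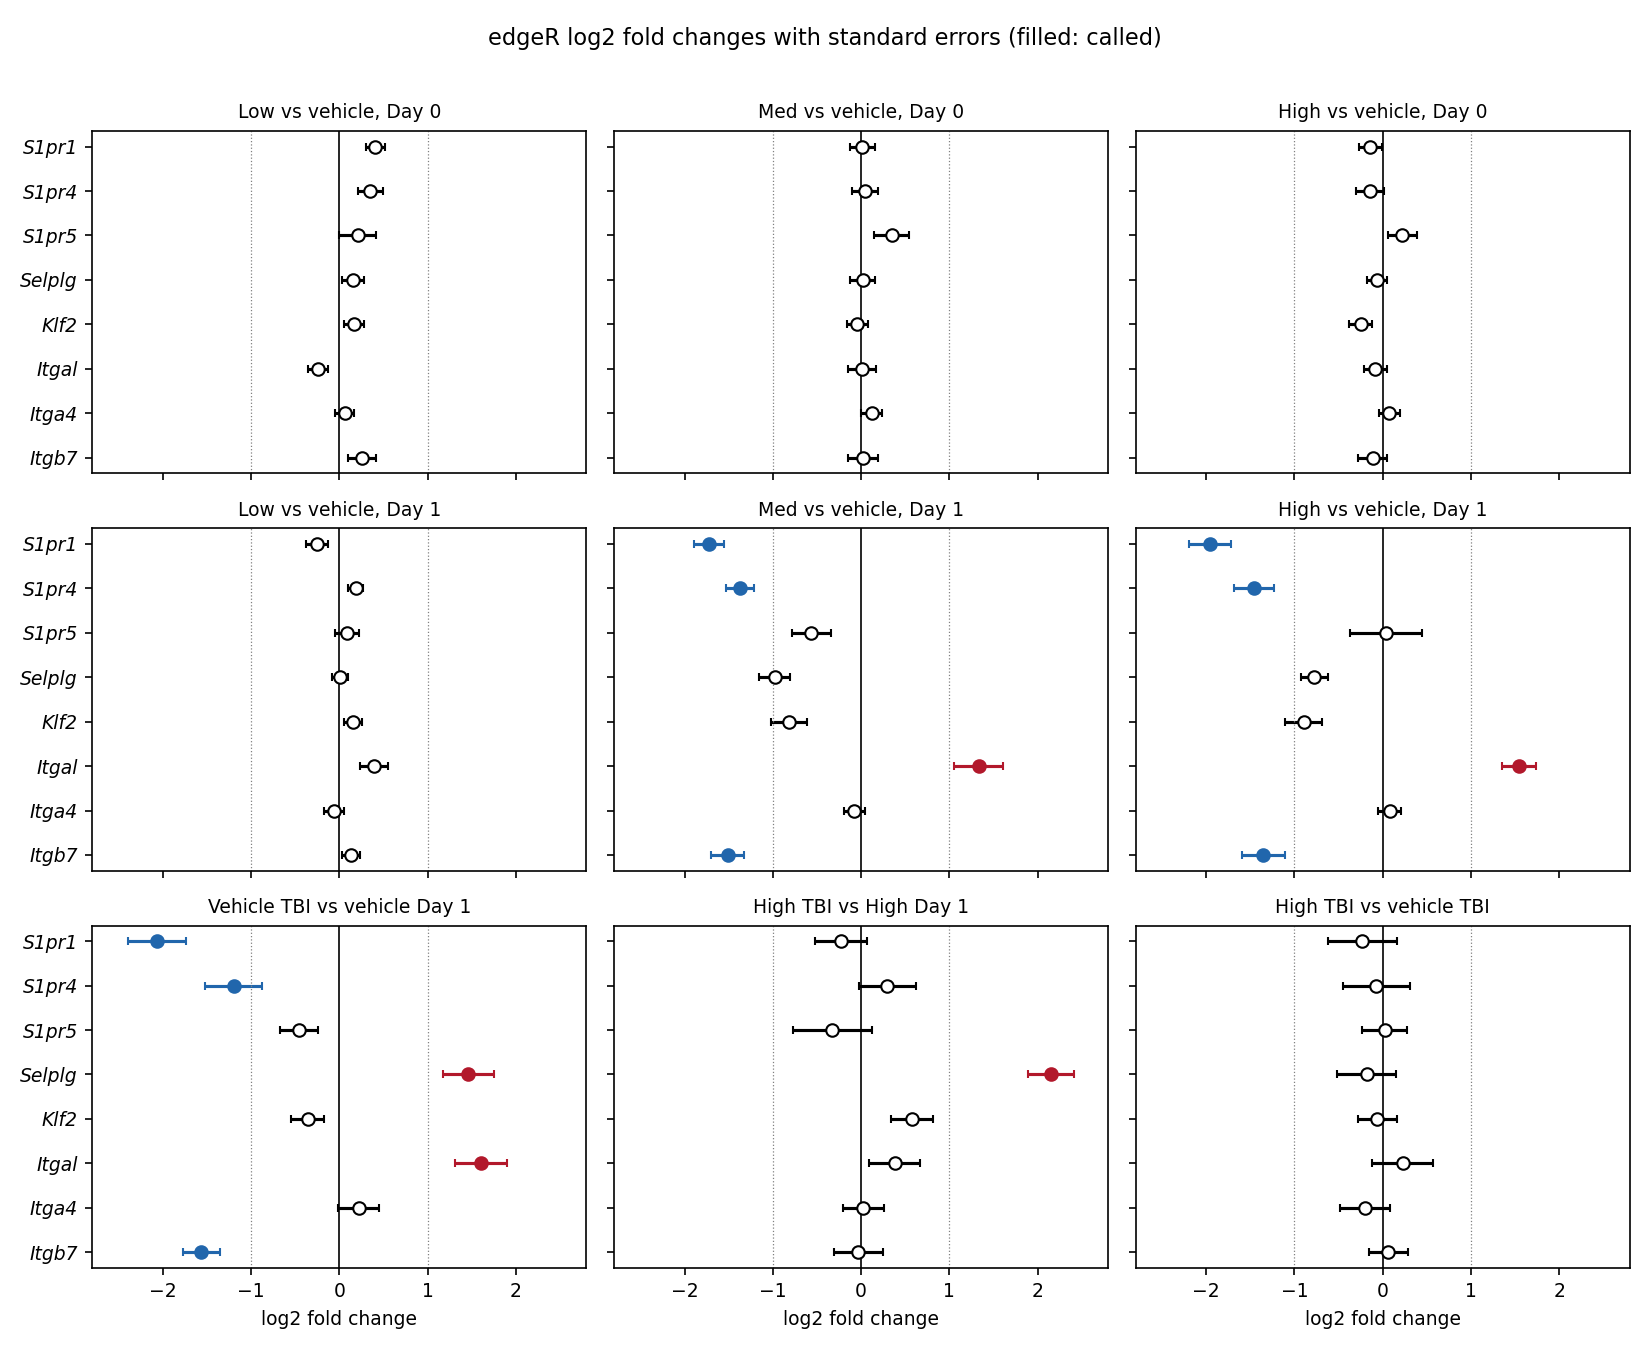
Log2 fold changes (edgeR, TMM) of the 8 genes with standard errors in 9 comparisons of 6 against 6 mice. Filled red and blue points are DEGs with higher and lower expression, open points are not, and dotted lines mark the fold threshold of 1. S1pr1, S1pr4 and Itgb7 were DEGs at 100 and 200 mg/kg on Day 1 and after TBI with vehicle, while the Day 0 panels hold no DEG.

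On Day 0, and at 50 mg/kg on either day, the question was whether the genes had moved before Day 1 or at the lowest dose. None of the 8 was a DEG at 50, 100 or 200 mg/kg on Day 0 (background 4.50%, 0% and 0% of genes), at 50 mg/kg on Day 1 (background 0%) or between vehicle-treated mice of Day 1 and Day 0 (background 0%). In the 4 comparisons in which edgeR called 0 genes, 726 (100 mg/kg, Day 0), 2146 (200 mg/kg, Day 0), 4458 (50 mg/kg, Day 1) and 3007 (vehicle, Day 1 against Day 0) had an unadjusted p under 0.05, and DESeq2 called 2, 2, 39 and 37. The fold changes of the 8 genes at 100 and 200 mg/kg on Day 0 lay between -0.25 and 0.35. At 50 mg/kg on Day 0, S1pr1 was slightly higher, at 157, 168 and 186 CPM against 93.0, 133 and 151 CPM with vehicle and without overlap, and the difference of 0.40 ± 0.11, adjusted p = 0.0255 did not reach the fold threshold. S1pr4 did not overlap either, at 59.1, 63.8 and 67.3 CPM against 29.2, 53.7 and 58.5 CPM (0.35 ± 0.14, adjusted p = 0.11). In these mice, 5 of 8 platelet and 3 of 7 erythroid marker genes were lower DEGs, beside 4.38% of all genes, and by total counts S1pr1 was 1.07 ± 0.18, adjusted p = 7.94e-04 and S1pr4 1.01 ± 0.20, adjusted p = 0.00103.

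Whether the Day 1 difference exceeded that of Day 0 was tested as an interaction of dose and day over 24 mice. At 200 mg/kg the fold change was more negative on Day 1 for S1pr1 (-1.82 ± 0.27, adjusted p = 1.06e-05), S1pr4 (-1.31 ± 0.28, adjusted p = 5.18e-04) and Itgb7 (-1.24 ± 0.30, adjusted p = 0.00178) and more positive for Itgal (1.65 ± 0.24, adjusted p = 7.53e-06), which is 3 lower and 1 higher of the 8 genes, beside 23.6% and 13.1% of all genes. At 100 mg/kg the interaction called the 4 genes S1pr1 (-1.74), S1pr4 (-1.41), Itgb7 (-1.53) and Itgal (1.34), 3 lower and 1 higher, beside 26.3% and 15.7% of all genes. On the scale of T and B cell marker genes the decreases were not called at 200 mg/kg (S1pr1 -0.32 ± 0.17, adjusted p = 0.109, S1pr4 0.16 ± 0.19, adjusted p = 0.482, Itgb7 0.21 ± 0.17, adjusted p = 0.325) or at 100 mg/kg (-0.10, 0.22 and 0.07). There 40.8% of all genes were higher and 6.57% lower DEGs at 200 mg/kg, and 45.8% and 6.91% at 100 mg/kg. At 50 mg/kg none was called (background 7.69%), with S1pr1 at -0.66 ± 0.17, adjusted p = 0.00776 and Itgal at 0.64 ± 0.21, adjusted p = 0.034.

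In irradiated mice, the question was whether prior BIO 300 altered the response. Between irradiated mice given 200 mg/kg BIO 300 and those given vehicle, none of the 8 genes was a DEG, nor was any of the 24916 genes tested (background 0%). For this comparison edgeR gave an unadjusted p under 0.05 for 688 genes and DESeq2 called 0. With BIO 300, S1pr1 was at 17.0, 28.8 and 49.3 CPM, S1pr4 at 10.1, 21.0 and 36.4 CPM, Klf2 at 114, 159.5 and 244 CPM, Itgal at 211, 572 and 856 CPM and Itgb7 at 17.6, 33.4 and 34.4 CPM. These ranges overlapped those of irradiated vehicle-treated mice. The differences between the irradiated groups ran from -0.23 (SE 0.39) for S1pr1 to 0.23 (SE 0.35) for Itgal, and each of the 8 differences was smaller than its standard error.

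The difference between irradiated and unirradiated mice depended on BIO 300 for 5 of the 8 genes on the TMM scale, in a contrast that carries the difference between the unirradiated groups on Day 1. Relative to unirradiated mice of the same treatment, irradiation changed S1pr1 by -2.07 ± 0.33 with vehicle and -0.23 ± 0.29 with BIO 300, S1pr4 by -1.20 ± 0.32 and 0.29 ± 0.32, and Itgb7 by -1.57 ± 0.21 and -0.03 ± 0.27. With BIO 300, 1 of the 8 genes was a higher DEG and 0 lower, beside 14.9% and 5.73% of all genes. The interaction of BIO 300 and irradiation over 24 mice was 1.95 ± 0.48, adjusted p = 0.00345 for S1pr1, 1.61 ± 0.46, adjusted p = 0.00976 for S1pr4, 1.64 ± 0.35, adjusted p = 0.00112 for Itgb7, 1.06 ± 0.31, adjusted p = 0.0108 for Klf2 and -1.09 ± 0.39, adjusted p = 0.0348 for Itgal. Thus 4 genes had a positive and 1 a negative interaction, beside 19.5% and 10.0% of all genes. For Selplg it was 0.81 ± 0.37, adjusted p = 0.095. On the scale of T and B cell marker genes S1pr1 was 0.20 ± 0.44, adjusted p = 0.753, S1pr4 -0.18 ± 0.37, adjusted p = 0.741 and Itgb7 -0.14 ± 0.22, adjusted p = 0.655, none of them called. The genes called there were S1pr5 (-1.54), Selplg (-1.07), Itgal (-3.26) and Itga4 (-2.25), beside 3.80% of all genes called higher and 35.4% lower. Within odd-numbered animals 0 of the 8 interactions was called and within even-numbered ones 4, with S1pr1 at 1.94 ± 0.64, adjusted p = 0.086 and 1.94 ± 0.50, adjusted p = 0.00671. The share of all genes called within a parity is not given beside these counts.

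Marker genes of blood cell types, in lists chosen with earlier results of these data known, moved with these results. All 8 T cell and all 8 B cell marker genes were lower DEGs at 100 mg/kg on Day 1, at 200 mg/kg on Day 1 and after TBI with vehicle, where 30.6%, 30.5% and 16.4% of all genes were lower DEGs. The summed T cell level was 339.9 to 431 CPM with vehicle on Day 1, 77.1 to 155 CPM at 100 mg/kg, 44.2 to 194 CPM at 200 mg/kg and 25.9 to 114 CPM after TBI. The summed B cell level was 855 to 1325 CPM, 237 to 590.5 CPM, 139.8 to 463 CPM and 57.4 to 148 CPM in the same groups. Platelet genes went the other way, from 2092 to 4231 CPM to 15316 to 26519.5 CPM at 200 mg/kg, with all 8 higher, and 7 of 7 matched erythroid genes were higher DEGs at both doses, beside 17.3% of all genes at 200 mg/kg and 18.2% at 100 mg/kg. Scaling to marker genes of lymphocytes or leukocytes gives the 8 genes relative to those cells' transcripts.

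**Figure D3:**
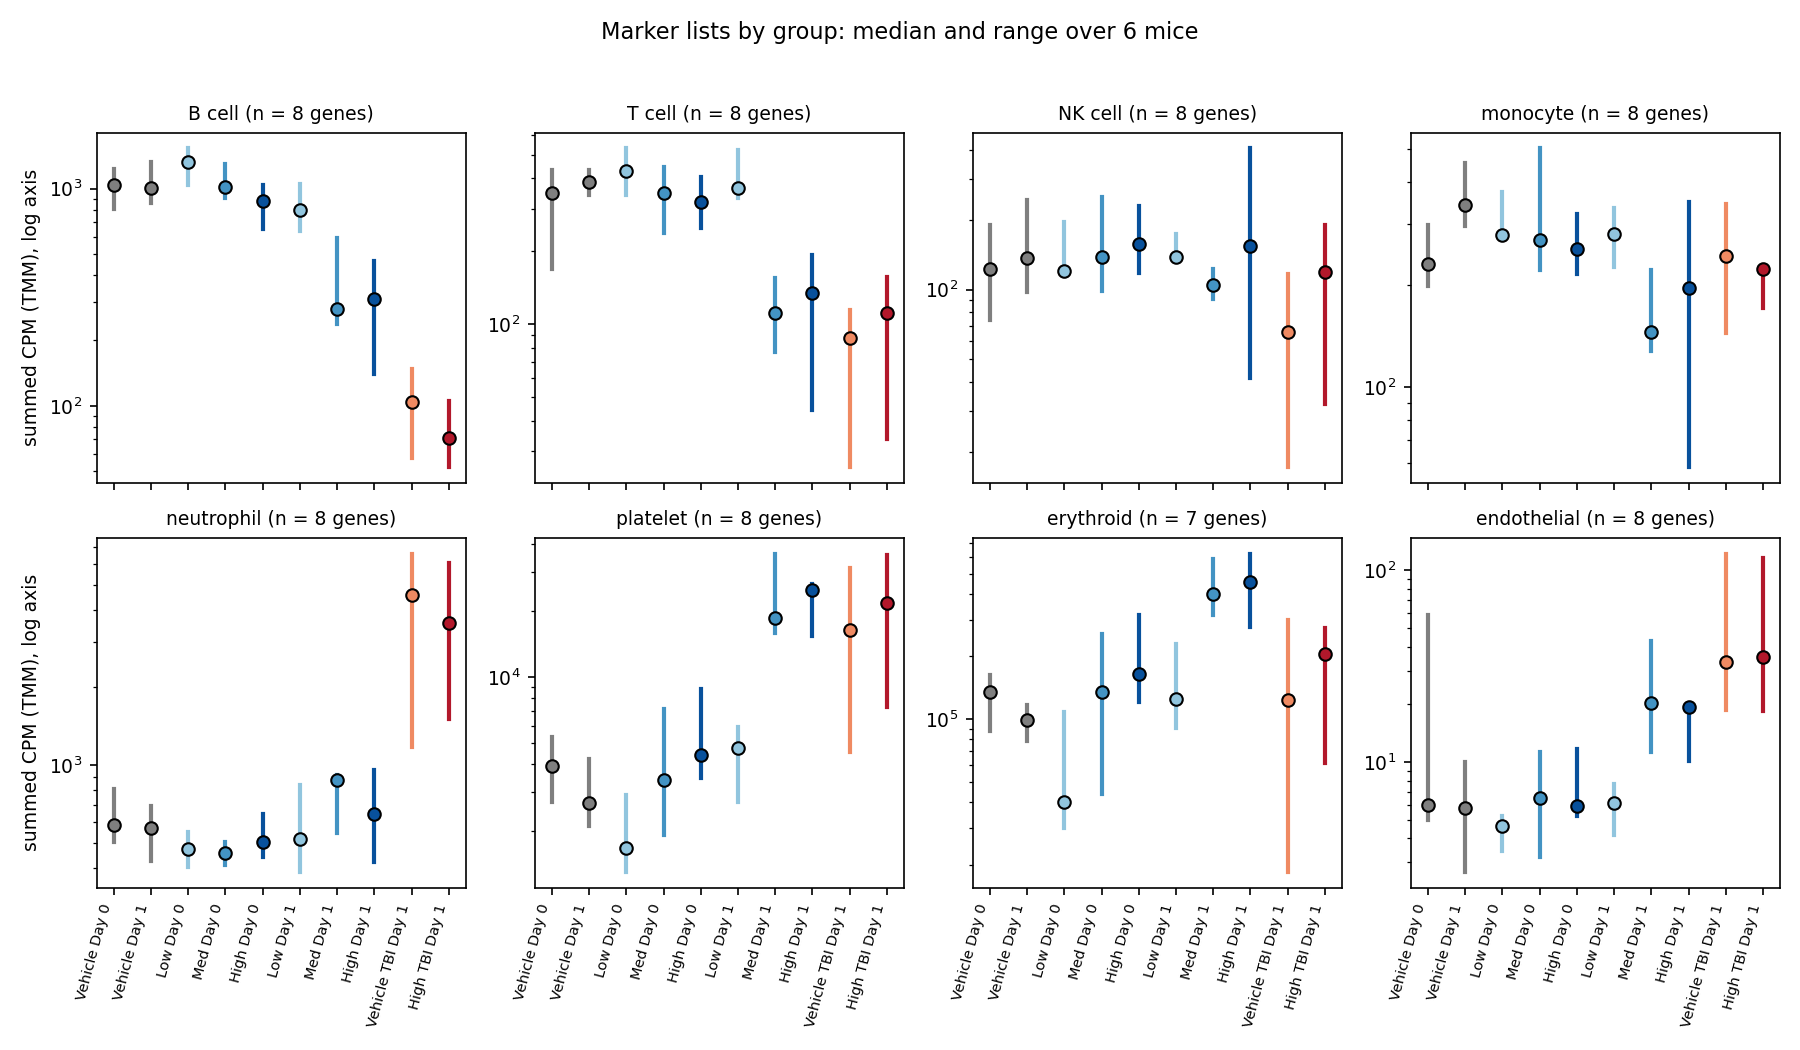
Summed expression of marker genes by group (CPM with TMM factors, log axis), with the median as a point and a line from the lowest to the highest of 6 mice. T and B cell sums were low and platelet sums high in the 4 groups at the right, where S1pr1 was also low, and neutrophil sums were highest in the 2 irradiated groups.

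Relative to the 16 T and B cell marker genes, S1pr1, S1pr4 and Itgb7 were DEGs at neither dose on Day 1. On this lymphocyte scale the median of all genes was 1.20 at 200 mg/kg and 3.12 after TBI with vehicle. Higher DEGs were 49.5% of all genes at 100 mg/kg, 47.7% at 200 mg/kg and 88.7% after TBI, and lower DEGs 8.69%, 6.92% and 0.449%. S1pr1 was -0.31 ± 0.18, adjusted p = 0.141 at 200 mg/kg, S1pr4 0.19 ± 0.17, adjusted p = 0.356 and Itgb7 0.27 ± 0.16, adjusted p = 0.168, and none was called at 100 mg/kg either, with -0.16, 0.19 and 0.04. After TBI with vehicle, S1pr1 was 0.94 ± 0.31, adjusted p = 0.0119 and Itgb7 1.41 ± 0.17, adjusted p = 3.83e-06. Selplg (4.42) and Itgal (4.72) were higher on it after TBI, and Itgal was 3.41 at 200 mg/kg. Against the 6 pan-leukocyte genes S1pr1 was -2.16 ± 0.23, adjusted p = 2.19e-06 at 200 mg/kg and -2.40 ± 0.49, adjusted p = 0.00194 after TBI, and Klf2 passed the fold threshold at 200 mg/kg (-1.11 ± 0.18, adjusted p = 8.47e-05). On the TMM scale 2 of those 6 genes were higher and 1 was a lower DEG at 200 mg/kg, beside 17.3% and 30.5% of all genes.

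Scaled to total counts, the median of all genes at 200 mg/kg on Day 1 was -1.96 in place of -0.48 with TMM. On that scale 7 of the 8 genes were lower DEGs at both doses, the exception being Itgal, where 62.2% of all genes at 100 mg/kg and 65.5% at 200 mg/kg were lower DEGs. Relative to the all-gene median of that scale, S1pr1 was -1.47, S1pr4 -0.98, Itgb7 -0.85, Itga4 0.50 and Itgal 2.00.

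**Figure D4:**
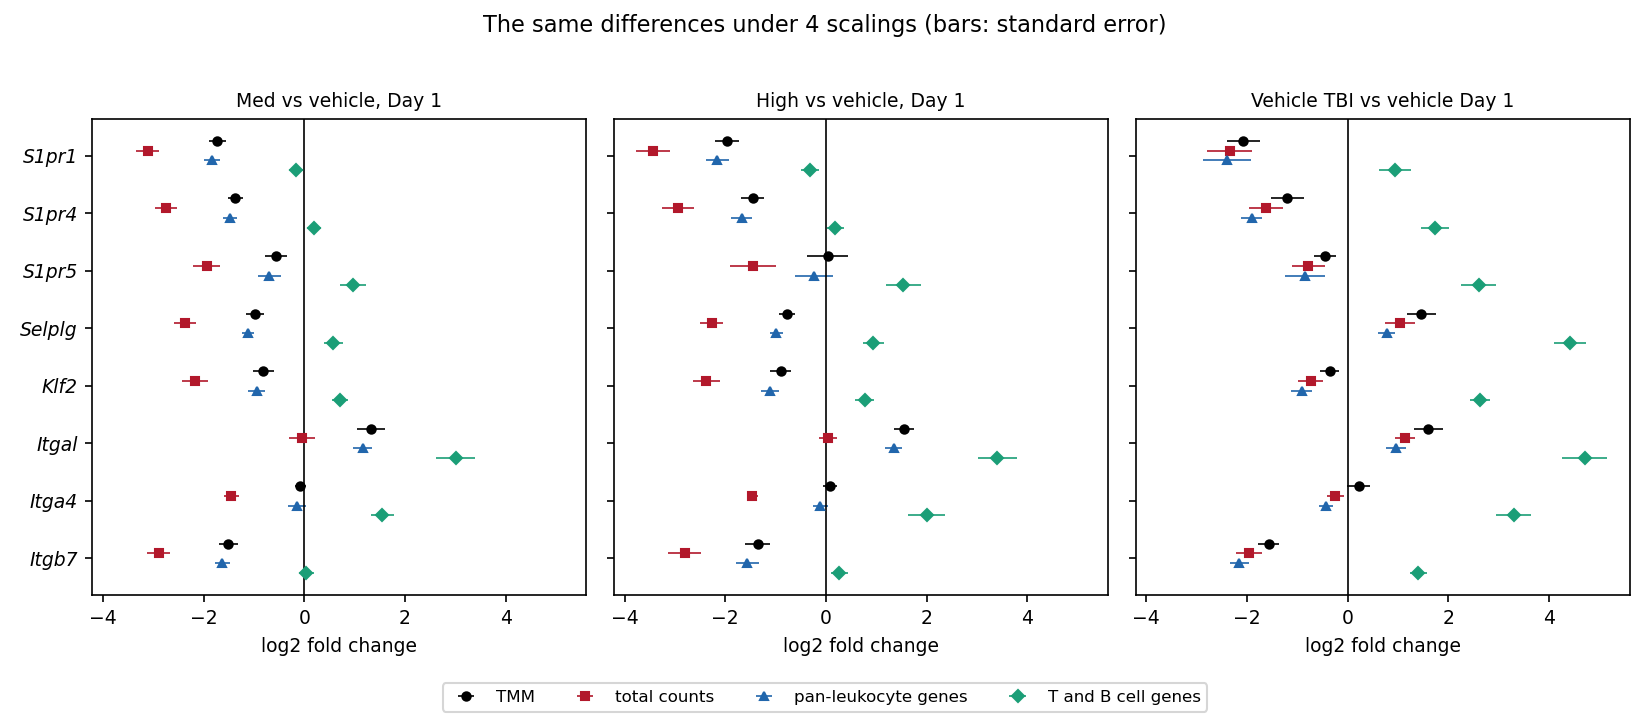
Log2 fold changes with standard errors of the 8 genes in 3 Day 1 comparisons under 4 scalings. S1pr1, S1pr4 and Itgb7 lie left of 0 by TMM (black), total counts (red) and pan-leukocyte genes (blue), and against T and B cell genes (green) within 0.31 of 0 at both doses and right of 0 after TBI, while Itgal lies at about 0 at both doses by total counts.

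A wider set of 61 genes around the 8, in 9 lists covering S1P metabolism, S1P receptors and their signalling, selectin ligands, integrins and their activators and ligands, transcription factors and homing chemokine receptors, had 60 tested at 200 mg/kg on Day 1. Each count of them is given with the share of all genes called in the same direction and on the same scale in parentheses. At 200 mg/kg on Day 1, 20 higher and 14 lower DEGs were found on the TMM scale (17.3% and 30.5%) and 5 and 35 by total counts (3.03% and 65.5%). The split at 100 mg/kg was 20 higher and 15 lower (18.2% and 30.6%), and 7 and 32 by total counts (4.14% and 62.2%). After TBI with vehicle against Day 1 it was 24 higher and 11 lower (19.6% and 16.4%), and 20 and 12 by total counts (12.4% and 22.5%), and against Day 0 24 higher and 9 lower (15.1% and 11.8%). After TBI with BIO 300, against unirradiated BIO 300 mice, it was 8 higher and 2 lower (14.9% and 5.73%), and 30 and 0 by total counts (38.5% and 0.945%). At 50 mg/kg on Day 0 it was 0 higher and 4 lower (0.127% and 4.38%), and 7 and 0 by total counts (10.5% and 1.25%). In the other comparisons of 2 groups none was a DEG.

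The interactions also split differently by scale. For BIO 300 by irradiation 14 higher and 16 lower were called (19.5% and 10.0%), and 26 and 4 by total counts (43.6% and 1.80%), with Sgpp2 at 3.47 and F11r at -2.91 on the TMM scale. For 200 mg/kg by day the counts were 20 higher and 14 lower (13.1% and 23.6%), and 7 and 31 by total counts (2.40% and 52.5%). For 100 mg/kg by day they were 21 higher and 17 lower (15.7% and 26.3%), and 7 and 34 by total counts (3.52% and 56.4%). For 50 mg/kg by day they were 8 higher and 0 lower (6.73% and 0.961%), and 3 and 28 by total counts (1.50% and 38.7%).

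Among 9 genes of S1P synthesis, export and breakdown, 3 were higher and 1 lower at 200 mg/kg on Day 1 on the TMM scale, beside 17.3% and 30.5% of all genes, and 1 higher and 6 lower by total counts, beside 3.03% and 65.5%. Mfsd2b, the S1P exporter of red cells and platelets, had medians of 63.6 and 669 CPM with vehicle and at 200 mg/kg on Day 1 (3.20 ± 0.22, adjusted p = 2.63e-08), and its total-count fold change was 1.67. It fell at 50 mg/kg on Day 0 (-1.16 ± 0.20, adjusted p = 0.00292), as did F11r (-1.48 ± 0.29, adjusted p = 0.00513) and Plpp1, a lipid phosphate phosphatase (-1.10 ± 0.25, adjusted p = 0.0119), and by total counts the values there were -0.50, -0.80 and -0.45. Sgpp2, an S1P phosphatase, had the most negative fold change of the genes named by the rule in the processing section at 100 mg/kg (-3.12 ± 0.35, adjusted p = 3.28e-06) and after TBI (-4.12 ± 0.47, adjusted p = 3.23e-05). At 200 mg/kg it was -2.95 ± 0.43, adjusted p = 3.82e-05, from a median of 7.50 CPM to 0.848 CPM.

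Of 4 chemokine receptor genes of lymphoid homing, 3 fell at 200 mg/kg on Day 1, beside 30.5% of all genes, with Ccr7, the receptor that brings T cells into lymph nodes, at 102 and 21.2 CPM (-2.10 ± 0.28, adjusted p = 1.66e-05), and after TBI 3 of 4 fell, beside 16.4%, with Ccr7 at -3.09 ± 0.44, adjusted p = 1.32e-04 and Cxcr5, the follicle-homing receptor of B cells, at -2.98 ± 0.29, adjusted p = 1.03e-05. Cd69, whose product binds and internalises the S1P receptor 1 protein, fell as well, with medians of 43.4 and 10.2 CPM in the vehicle and 200 mg/kg groups (-2.00 ± 0.20, adjusted p = 9.80e-07).

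Of 9 genes that activate integrins, 6 were higher and 1 lower at 200 mg/kg on the TMM scale, beside 17.3% and 30.5% of all genes, whereas by total counts 1 was higher and 3 were lower, beside 3.03% and 65.5%. Fermt3, which encodes the kindlin of blood cells, was at 156 and 1303 CPM with vehicle and at 200 mg/kg (2.94 ± 0.19, adjusted p = 2.03e-08). F11r, a ligand of LFA-1 that is also abundant on platelets, was at 6.43 and 69.4 CPM (3.43 ± 0.18, adjusted p = 1.77e-08), and its total-count value was 1.90. After TBI, Selp, the P-selectin gene whose product binds PSGL-1, rose from 4.14 to 21.2 CPM (3.17 ± 0.56, adjusted p = 6.00e-04), and Itgam, the alpha chain of the myeloid integrin Mac-1, from 12.2 to 66.3 CPM (2.67 ± 0.34, adjusted p = 6.21e-05). With BIO 300 before TBI, Itgam (2.81 ± 0.27, adjusted p = 3.51e-05) and Fut4, a fucosyltransferase that builds selectin ligands (2.26 ± 0.34, adjusted p = 4.48e-04), rose over unirradiated BIO 300 mice, and Cxcr5 (-1.49 ± 0.36, adjusted p = 0.00803) and Tpst1, which sulphates PSGL-1 (-1.07 ± 0.22, adjusted p = 0.00332), fell.

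**Figure D5:**
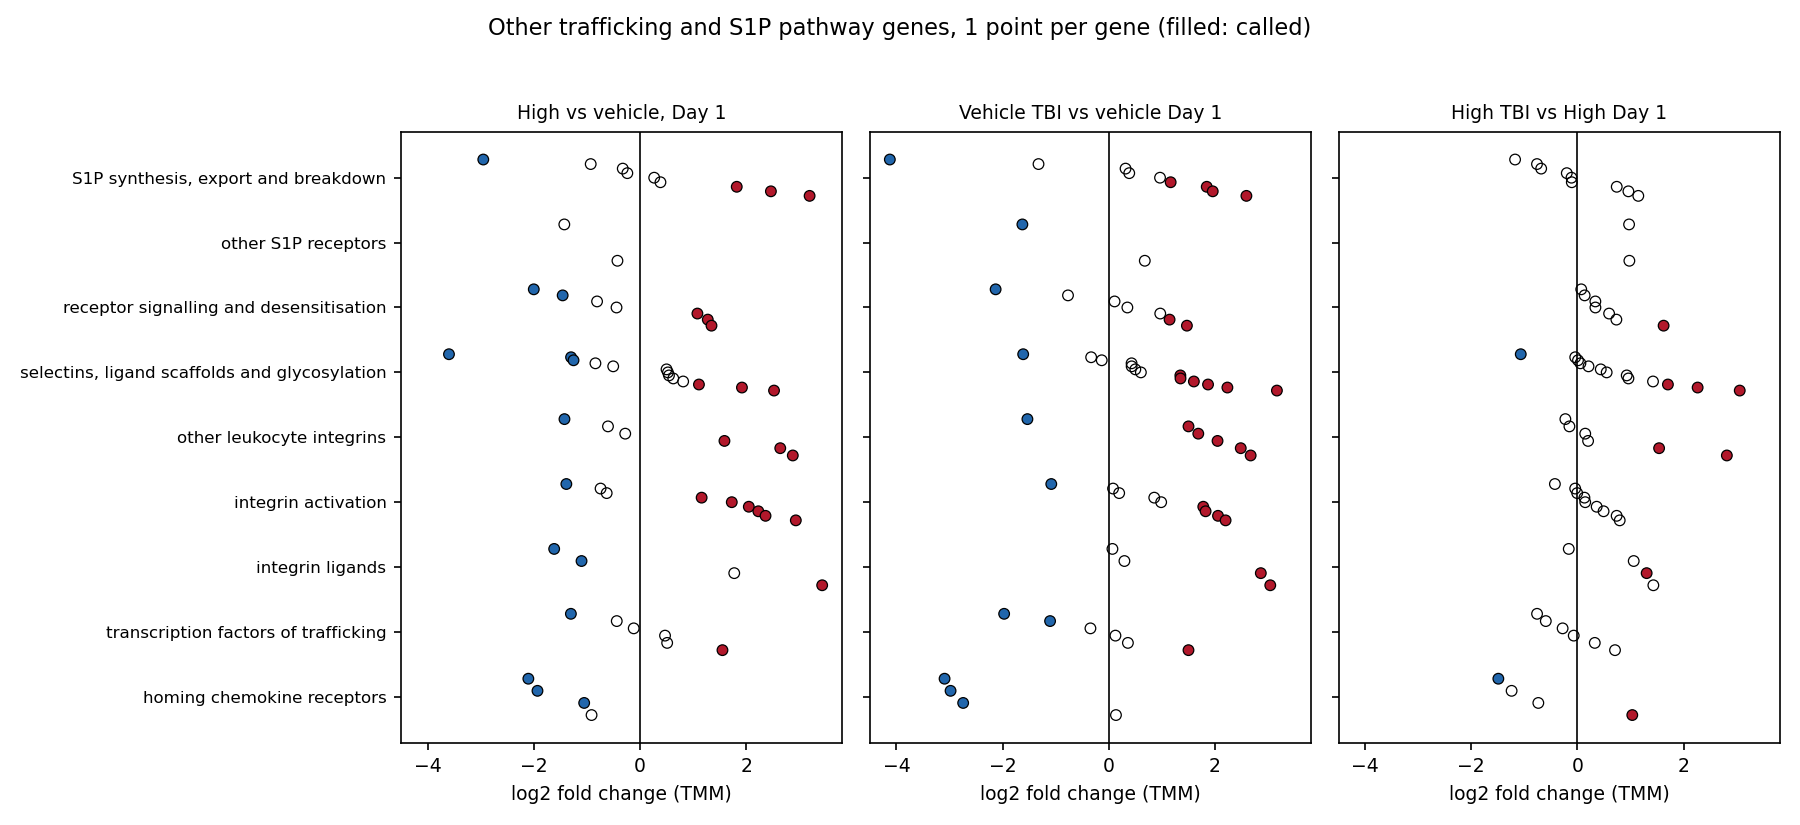
Log2 fold changes (TMM) of the other pathway genes by list in 3 comparisons, 1 point per gene, red and blue for DEGs with higher and lower expression and open for the rest. At 200 mg/kg on Day 1, 6 of 9 integrin activation genes are higher DEGs and 3 of 4 homing chemokine receptors lower ones, beside 17.3% and 30.5% of all genes on this scale.

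Across the 60 mice, the 8 genes differed in which other genes followed them, by Pearson r of log2(CPM + 1) among 8994 genes with a mean of at least 5 CPM. The mice share groups, libraries and scaling, and the values are given as a description. Closest to S1pr1 were Chtop (0.97), Trim7 (0.97) and Klhl42 (0.97). S1pr4 was followed most closely by Dgka (0.98), Satb1 (0.97) and Traf3ip3 (0.97), and Itgb7 by Dgka (0.99), Agap2 (0.98) and Pced1b (0.98), with Dgka, a diacylglycerol kinase of T cells, in both sets. For Klf2 the nearest were Rnf41 (0.95), Dennd4b (0.95) and Arhgef1 (0.94), for Selplg Pbxip1 (0.98), Nfkbiz (0.98) and Tmem154 (0.98) and for Itgal Mbp (0.97), Ncoa1 (0.97) and Cds2 (0.97). S1pr5 and Itga4 had looser neighbours, Adgre4 (0.83), Elmo2 (0.80) and Grk3 (0.79) for the former and Spata13 (0.79), Trim56 (0.77) and Sp1 (0.77) for the latter. Among the 8 themselves, S1pr1 and Itgb7 had r = 0.91, S1pr1 and Itgal r = -0.88, and Selplg and Itgb7 r = 0.03.

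In the order of the 10 group medians, neighbouring groups overlapped except in 3 places. These lay between 50 mg/kg on Day 1 (111 CPM) and the next lower group for S1pr1 (100 mg/kg on Day 1, 36.0 CPM), between 200 mg/kg on Day 0 (76.8 CPM) and the next lower group for Itgb7 (irradiated BIO 300 mice, 33.4 CPM), and between irradiated BIO 300 mice (329 CPM) and the next lower group for Selplg (vehicle on Day 1, 139 CPM).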

How the data were processed

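Whole-blood RNA of 60 mice (10 groups of 6, separate mice) was sequenced. The authors deposited raw counts per gene, made with Trimmomatic 0.36 for trimming, STAR 2.5.2b for alignment to GRCm38 and Subread 1.5.2 for counting uniquely assigned reads. They also deposited counts divided by 1 DESeq2 size factor per mouse (normalised signal), used only to check the counts, with gene names, and fold change and p-value columns of their own comparisons, which were not used. Annotation release and strand setting were not given in the sources used here. The methods describe globin and ribosomal RNA depletion, the labels polyA selection.

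Counts were tested with edgeR 4.0.16 (R 4.3.3) by quasi-likelihood, after TMM scaling, keeping genes whose counts reached 10 in sum over the mice compared. Benjamini-Hochberg adjustment ran over all genes tested. DESeq2 1.42.0, other scalings and filters, leaving out mice, and (chosen after seeing the data) animal-number parity were alternatives. Scripts were tested on simulated data. Replicates are mice, so p-values judge group differences against the spread between mice of a group. Mice shared cages and irradiation boxes, which did not enter the fits. Total counts of 15099415 to 45589415 limit precision most for S1pr5. The 8 genes, marker lists and pathway lists were chosen with earlier results of these data known. Pathway genes are named by rule: up to 3 higher and 3 lower DEGs per comparison by fold change, restricted to genes averaging 5 CPM or more in 1 group, of which the text takes a selection, plus S1pr2, S1pr3, Itgb1 and Itgb2. For likeness, the 3 genes with the highest r are named. Gene coordinates are GENCODE, promoters RefSeq, both on GRCm38.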

Additional observations from a re-analysis of the deposited data

Results flagged for a closer look

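In 6 of 80 groups of 6 mice (8 genes in 10 groups), 1 mouse lay apart from the others by Dixon's criterion at the 95% level, which chance meets in about 1 in 20 groups. In vehicle-treated mice on Day 0, animal 17 was lowest for S1pr4 (29.2 CPM) and for Klf2 (150.1 CPM), and it was among the 10 animals with Alb above 100 CPM. Animal 36 at 50 mg/kg on Day 1 was lowest for S1pr5 (6.96 CPM). Animal 51 of the irradiated vehicle group was highest for S1pr5 (9.72 CPM), and animal 57 of the irradiated BIO 300 group was lowest for Itga4 (152 CPM). Both had Alb above 100 CPM. Animal 42 at 100 mg/kg on Day 1 was highest for Itgal (767 CPM).

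Of 32 interaction tests over the 8 genes, 13 found that a difference depended on the other factor, by the DEG criteria in edgeR's test. For BIO 300 by irradiation these were S1pr1 (1.95), S1pr4 (1.61), Itgb7 (1.64), Klf2 (1.06) and Itgal (-1.09). For 100 mg/kg by day they were S1pr1 (-1.74), S1pr4 (-1.41), Itgb7 (-1.53) and Itgal (1.34), and for 200 mg/kg by day S1pr1 (-1.82), S1pr4 (-1.31), Itgb7 (-1.24) and Itgal (1.65).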

How the results depend on the processing

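For 120 values (8 genes in 15 comparisons), the side of the threshold was compared between settings, and for DEGs also the direction. On that rule 120 were unchanged with edgeR's own filter, 119 with DESeq2, 119 without a filter, 119 with parity as a term and 118 without the Alb-high mice. The number was 117 in even-numbered animals, 112 on the pan-leukocyte scale, 95 in odd-numbered animals, 86 by total counts and 75 on the lymphocyte scale. Changes of sign in values that were DEGs in neither setting were not counted. Some occurred, as on the lymphocyte scale and in even-numbered animals. Leaving out 1 mouse in turn left 1043 of 1056 values unchanged on the same rule, and the exceptions are given with S1pr4, Klf2 and Selplg above. No paired analysis was possible because the replicate numbers are animal numbers, each used once over the 60 mice.

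Numbers of the 8 genes called are given beside the share of all genes called in that direction on the same scale, except where stated. By total counts the number for 50 mg/kg on Day 0 was 2 higher, beside 10.5% (reported 0). On Day 1 it was 7 lower at 100 mg/kg, beside 62.2%, and 7 lower at 200 mg/kg, beside 65.5% (reported 4 each). For TBI with BIO 300 against unirradiated BIO 300 mice it was 4 higher, beside 38.5% (reported 1). For BIO 300 by irradiation it was 6 higher, beside 43.6% (reported 5). By day it was 6 lower for 50 mg/kg, beside 38.7% (reported 0). For 100 and 200 mg/kg by day it was 7 lower each, beside 56.4% and 52.5% (reported 4 each). Values named here as changing sign by total counts have a reported or new value past the threshold. For 100 mg/kg on Day 1 they were Itgal (-0.046). For 200 mg/kg on Day 1 they were S1pr5 (-1.44) and Itga4 (-1.46). For BIO 300 by irradiation they were Itgal (0.022) and Itga4 (1.13). For 100 mg/kg by day they were Itgal (-0.14). For 200 mg/kg by day they were Itga4 (-1.26).

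On the lymphocyte scale the number on Day 1 was 2 higher for 100 mg/kg, beside 49.5%, and 3 higher for 200 mg/kg, beside 47.7% (reported 4 each). For TBI it was 7 higher against vehicle Day 1, beside 88.7%, and 7 higher against vehicle Day 0 (reported 5 each). For BIO 300 by irradiation it was 4 lower, beside 35.4% (reported 5). By day it was 2 higher for 100 mg/kg, beside 45.8%, and 3 higher for 200 mg/kg, beside 40.8% (reported 4 each). It was 8 higher for TBI with BIO 300 against unirradiated BIO 300 mice (reported 1) and 1 higher for 50 mg/kg by day (reported 0). Shares of all genes are not given for these last counts or for TBI against vehicle Day 0, so these counts are not set against other genes. For TBI with BIO 300 the median log2 fold change of all genes on this scale was 1.64, beside 1.36 over the 8 genes. Some values that were DEGs on neither scale changed sign too. Among them were Selplg and Klf2 on Day 1, at 0.57 and 0.70 for 100 mg/kg and 0.94 and 0.77 for 200 mg/kg. Signs changed for 29 values that were DEGs on at least 1 of the 2 scales. For 100 mg/kg on Day 1 they were S1pr4 (0.19), Itga4 (1.55) and Itgb7 (0.042). For 200 mg/kg on Day 1 they were S1pr4 (0.19) and Itgb7 (0.27). For TBI against vehicle Day 1 they were S1pr1 (0.94), S1pr4 (1.74), S1pr5 (2.61), Klf2 (2.63) and Itgb7 (1.41). For TBI against vehicle Day 0 they were S1pr1 (0.98), S1pr4 (1.71), S1pr5 (2.78), Klf2 (2.54) and Itgb7 (1.32). For TBI with BIO 300 against unirradiated BIO 300 mice they were S1pr1 (1.14), S1pr5 (1.06) and Itgb7 (1.27). For BIO 300 by irradiation they were S1pr4 (-0.18), S1pr5 (-1.54), Selplg (-1.07), Klf2 (-0.76) and Itgb7 (-0.14). For 100 mg/kg by day they were S1pr4 (0.22), Itga4 (1.50) and Itgb7 (0.073). For 200 mg/kg by day they were S1pr4 (0.16), S1pr5 (1.15) and Itgb7 (0.21).

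On the pan-leukocyte scale the number was 3 for TBI against vehicle Day 1 (reported 5) and 3 for TBI against vehicle Day 0 (reported 5). It was 5 for 100 mg/kg and 5 for 200 mg/kg on Day 1 and 6 for 100 mg/kg by day (reported 4 each). In odd-numbered animals it was 6 for 100 mg/kg and 7 for 200 mg/kg on Day 1 (reported 4 each), and S1pr5 at 200 mg/kg on Day 1 was -1.35. It was 2 for TBI against vehicle Day 1 and 0 against vehicle Day 0 (reported 5 each), and 0 for BIO 300 by irradiation (reported 5). By day it was 7 for 100 mg/kg and 6 for 200 mg/kg (reported 4 each). In even-numbered animals it was 2 for TBI with BIO 300 against unirradiated BIO 300 mice (reported 1). It was 4 there for BIO 300 by irradiation (reported 5) and 3 for 200 mg/kg by day (reported 4). The scalings differ by the genes held constant, and within a parity there are 3 mice per group. Shares of all genes called are not given for the pan-leukocyte scale or within a parity, so these counts are not set against other genes. Other causes were not tested.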

Other observations

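Among cell types not described above, the summed level of 8 monocyte genes was 297 to 454 CPM in vehicle-treated mice on Day 1, 128 to 221 CPM at 100 mg/kg, 58.5 to 349 CPM at 200 mg/kg and 144 to 344 CPM after TBI. At 100 mg/kg on Day 1, 4 of 8 monocyte genes were lower DEGs and 0 higher, beside 30.6% and 18.2% of all genes by edgeR. Between irradiated and unirradiated mice given BIO 300, 7 of 8 B cell genes were lower DEGs, beside 5.73% of all genes, with summed levels of 52.5 to 106 CPM and 139.8 to 463 CPM. Of the 8 T cell genes, 1 was a lower DEG, and the summed levels overlapped (33.6 to 156 CPM and 44.2 to 194 CPM). Itgb7 and S1pr4 were not DEGs in that comparison (-0.03 and 0.29).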
